A study of Macaca mulatta with 136 samples.

Results

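Amacrine and horizontal cells are the lateral interneurons of the retina, and 10 genes that mark them were followed across the eye of adult rhesus macaques. Of the 19422 gene identifiers in the deposited tables, the 10 entries were taken by symbol, by a rule that uses no measured value. The set itself was chosen with earlier results of these data known. They comprise 6 amacrine cell genes (GAD1, GAD2, SLC6A9, CHAT, TFAP2A and TFAP2B) and 4 horizontal cell genes (ONECUT1, ONECUT2, LHX1 and CALB1). Each symbol had 1 entry, and its macaque Ensembl identifier carried the same symbol in the reference table. Poly-A selected RNA came from 2 mm post-mortem punches of the fovea/macula (fovea below), the perimacula, the nasal retina and the temporal periphery, with the neural retina microdissected from the RPE/choroid (retinal pigment epithelium and underlying vascular layer). The right and left eyes of 2 animals, RM03 and RM04, gave 4 eyes per group, 8 groups and 32 libraries. Eyes of an animal are not independent animals, and the 4 eyes came from only 2. An SD below is the spread over 4 eyes. An SE or interval comes from the fitted test. The fit takes out the difference between the animals and counts fellow eyes as separate samples.

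Horizontal cells receive input from photoreceptors in the outer retina and feed back onto them, and amacrine cells shape the signal from bipolar to ganglion cells in the inner retina. Most amacrine cells release GABA or glycine. GAD1 and GAD2 encode the glutamate decarboxylases that make GABA, SLC6A9 the glycine transporter GlyT1, and CHAT the choline acetyltransferase of starburst amacrine cells. TFAP2A and TFAP2B are AP-2 transcription factors used in amacrine cell identity. ONECUT1, ONECUT2 and LHX1 are transcription factors of horizontal cell development, and CALB1 encodes the calcium-binding protein calbindin, which other retinal neurons also hold. GABA synthesis and the AP-2 factors are not exclusive to amacrine cells either.

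The libraries held between 42448903 and 78574055 estimated counts. Levels are given as CPM (counts scaled to a common library total) after TMM scaling within a tissue, always in the order RM03 right eye, RM03 left eye, RM04 right eye, RM04 left eye. A CPM is a share of the library, and levels are compared between samples, not between genes, since gene length is not divided out. In bulk tissue, fewer cells of a type and less RNA per cell cannot be told apart. The fovea, perimacula and nasal libraries were sequenced on the same 2 flow cells and the periphery libraries on 1 other, so that a difference from the periphery and a difference between flow cells cannot be told apart. The tissue labels held against marker genes: 9 rod markers summed to 4240 to 28100 CPM in retina and 47.7 to 908 CPM in RPE/choroid, and 8 RPE markers to 300.0 to 1690 CPM in retina and 5620 to 21500 CPM in RPE/choroid.

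Between the fovea and the periphery of the retina, all 4 horizontal cell genes and 2 of the 6 amacrine cell genes passed the test. The horizontal cell genes were higher in the fovea by 2.45- to 4.12-fold, with a median log2 fold change of 1.84. The 2 amacrine cell genes that passed were the AP-2 factors TFAP2A and TFAP2B, both higher in the fovea, and the median over the 6 was 0.17. These are 6 of 10 members at an adjusted p under 0.05 (edgeR's quasi-likelihood test, Benjamini-Hochberg adjustment over all genes tested), beside 67.0% of the 15380 genes tested, whose median was -0.06. The share called is therefore near that of all genes, and what can be read from the members is the size and direction of each change.

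**Figure D1:**
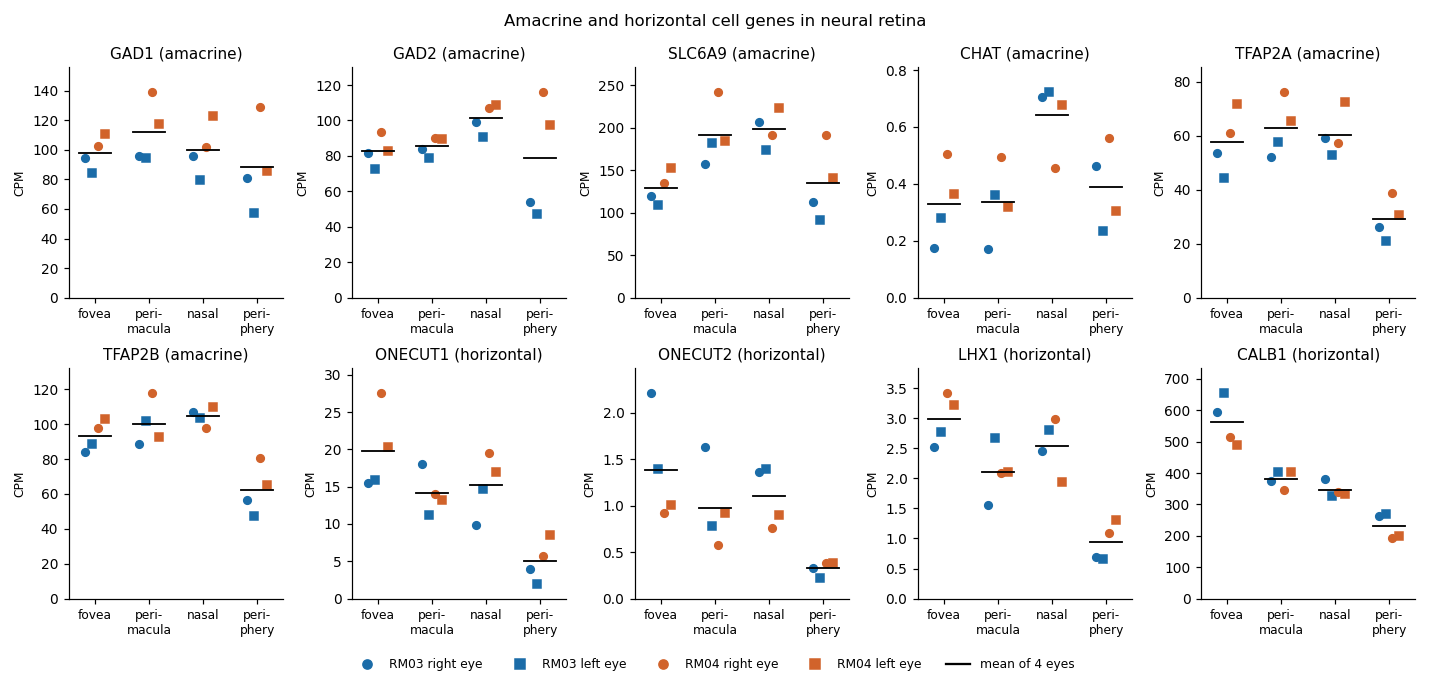
Level of each of the 10 genes in neural retina, in CPM on a linear axis from 0, at the 4 locations. Points are single eyes, blue for RM03 and orange for RM04, and black lines are means of 4 eyes. The 4 horizontal cell genes and TFAP2A and TFAP2B are lowest at the periphery with no overlap with the fovea, whereas GAD1, GAD2, SLC6A9 and CHAT overlap between fovea and periphery. Overlap was not counted over all genes, of which 67.0% passed the test between fovea and periphery.

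ONECUT1 showed the largest estimate among the members. It stood at 15.5, 15.9, 27.6 and 20.3 CPM in the fovea and at 4.03, 1.90, 5.65 and 8.46 CPM in the periphery. The groups did not overlap, and RM03's left eye held the lowest peripheral value. The log2 fold change was 2.04 ± 0.31 (SE of the fit), a 4.12-fold difference (edgeR, adjusted p = 9.88e-05). In the perimacula the mean was 14.1 ± 2.86 CPM and at the nasal location 15.2 ± 4.13 CPM (SD, n = 4), between the other locations in both cases.

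Its paralogue ONECUT2 followed at a far lower count. The fovea held 2.21, 1.40, 0.92 and 1.01 CPM and the periphery 0.33, 0.22, 0.38 and 0.39 CPM, from 53 to 102 and from 15 to 32 estimated counts per library. No peripheral eye reached a foveal one, and within the fovea both eyes of RM03 stood above both eyes of RM04. The log2 fold change was 1.98 ± 0.36 (SE; edgeR, adjusted p = 0.000383), 3.95-fold.

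LHX1, a LIM homeobox factor that places horizontal cells in their layer, stood at 2.52, 2.78, 3.42 and 3.22 CPM in the fovea and at 0.69, 0.66, 1.09 and 1.31 CPM in the periphery. The difference was 1.70 ± 0.21 on the log2 scale (SE; edgeR, adjusted p = 1.76e-05), or 3.24-fold, again with no overlap. Its macaque entry rests on 3 sources of orthology in the deposited table, against 6 to 9 for the other members.

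CALB1 was the most precisely measured of the horizontal cell genes. Foveal levels were 595.9, 655.0, 514.2 and 489.8 CPM and peripheral levels 262.1, 269.4, 194.6 and 198.6 CPM. At both locations the eyes of RM03 were above those of RM04, and the difference within an eye was nearly the same in each, between 1.19 and 1.40 on the log2 scale. The fit gave 1.30 ± 0.09 (SE; edgeR, adjusted p = 3.12e-07), 2.45-fold. CALB1 was also the one horizontal cell gene whose fovea stood clear of every other location: all 4 foveal eyes were above the perimacula (345.8 to 403.0 CPM) and the nasal location (326.1 to 381.5 CPM).

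The AP-2 factors formed a pair of their own. TFAP2A stood at 53.6, 44.6, 61.2 and 72.0 CPM in the fovea and at 26.2, 20.95, 39.0 and 30.8 CPM in the periphery, a 2-fold difference with no overlap (log2 fold change 1.00 ± 0.10, SE; edgeR, adjusted p = 3.93e-06). TFAP2B stood at 84.0, 88.5, 97.7 and 102.7 CPM in the fovea and at 56.5, 47.4, 80.6 and 65.2 CPM in the periphery, 1.51-fold apart (0.60 ± 0.10, SE; edgeR, adjusted p = 0.000199). Here the highest peripheral eye, the right eye of RM04, came within 4 CPM of the lowest foveal eye. Neither factor had its highest mean in the fovea: TFAP2A was at 62.99 ± 10.5 CPM in the perimacula and TFAP2B at 104.5 ± 5.38 CPM at the nasal location.

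The transmitter genes showed no difference between fovea and periphery that passed the test, and their intervals bound what could have been missed. GAD1 was at 94.1, 84.5, 102.7 and 110.6 CPM in the fovea and 81.2, 57.2, 128.9 and 85.7 CPM in the periphery. The peripheral values spanned the foveal ones, with the right eye of RM04 highest. Its log2 fold change was 0.19, with a 95% interval from -0.10 to 0.48 (edgeR, adjusted p = 0.229). Without the right eye of RM04 it became 0.37 and passed the test, the only one of 14 alternatives in which it did (adjusted p from 0.0317 to 0.616).

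GAD2, the second decarboxylase, split by animal. In the fovea the eyes were alike, at 81.4, 72.7, 93.3 and 82.9 CPM, and in the periphery RM03 stood at 54.1 and 47.3 CPM and RM04 at 116.0 and 97.6 CPM. The change from periphery to fovea was 0.59 and 0.62 on the log2 scale in the eyes of RM03 and -0.31 and -0.23 in those of RM04. The pooled value of 0.14 (95% interval -0.22 to 0.51; edgeR, adjusted p = 0.466) therefore averages over opposite signs, and the difference between the animals was not tested.

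SLC6A9 was at 120.0, 109.1, 135.7 and 152.3 CPM in the fovea and 113.3, 92.0, 191.8 and 141.2 CPM in the periphery, overlapping throughout (log2 fold change -0.02, 95% interval -0.29 to 0.24; edgeR, adjusted p = 0.884). CHAT was barely detected. Its 16 retinal libraries held from 7 to 45 estimated counts, with 0.33 ± 0.14 CPM in the fovea and 0.39 ± 0.15 CPM in the periphery (SD, n = 4). The interval of its change ran from -1.01 to 0.49 (edgeR, adjusted p = 0.518) and so includes changes of either sign.

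Comparisons among the fovea, perimacula and nasal location share their flow cells. Between fovea and nasal retina, 3 members passed the test, beside 52.2% of all genes. CALB1 was higher in the fovea by 0.70 ± 0.09 on the log2 scale (SE; edgeR, adjusted p = 1.06e-05). The glycine transporter gene went the other way: SLC6A9 was at 206.7, 174.5, 191.7 and 222.9 CPM in nasal retina, above every foveal eye, and its foveal level was lower by a log2 fold change of -0.63 ± 0.14 (SE; edgeR, adjusted p = 0.00118). CHAT was also lower in the fovea (-0.99, 95% interval -1.73 to -0.24; edgeR, adjusted p = 0.0275), but the right eye of RM04 did not take part (0.13, against -1.84, -1.27 and -0.84). The CHAT call held in 8 of 14 alternatives (adjusted p from 0.0133 to 0.265) and was lost without the right eye of RM03 (-0.67), its left eye (-0.84) or the left eye of RM04 (-1.05).

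The remaining horizontal cell genes had positive estimates between fovea and nasal retina that did not pass the test: 0.38 for ONECUT1 (95% interval -0.21 to 0.96; past the test in 1 of 15 alternatives), 0.31 for ONECUT2 (-0.32 to 0.94) and 0.21 for LHX1 (-0.24 to 0.67). GAD2 was lower in the fovea in all 4 eyes, by -0.20 to -0.39 on the log2 scale, and the fit over 16 libraries gave -0.30 (95% interval -0.64 to 0.04; edgeR, adjusted p = 0.133). It passed in 3 of 15 alternatives, those without the periphery libraries (adjusted p over all from 0.00101 to 0.306). The intervals of GAD1 (-0.31 to 0.27), TFAP2A (-0.33 to 0.17) and TFAP2B (-0.41 to 0.06) included 0.

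Fovea and perimacula differed in 2 members, beside 35.2% of all genes. CALB1 was higher in the fovea (0.56 ± 0.09, SE; edgeR, adjusted p = 0.000844) and SLC6A9 lower (-0.55 ± 0.12, SE; edgeR, adjusted p = 0.00444), with perimacular SLC6A9 levels of 157.6, 182.4, 242.1 and 184.5 CPM above every foveal eye. The SLC6A9 call held in 15 of 16 alternatives (adjusted p from 0.000386 to 0.0613) and was lost without the monkey as a covariate. LHX1 had an estimate of 0.50 (95% interval 0.06 to 0.94; edgeR, adjusted p = 0.0735), which passed the test without the left eye of RM03 (0.65) and in 2 of 16 alternatives in all (adjusted p from 0.0209 to 0.318). Perimacula and nasal retina differed in 0 members by edgeR, beside 1.49% of all genes, and in 0 by DESeq2. At an unadjusted p under 0.05 in edgeR stood 1 member, CHAT, beside 2569 of the 15486 genes tested.

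**Figure D2:**
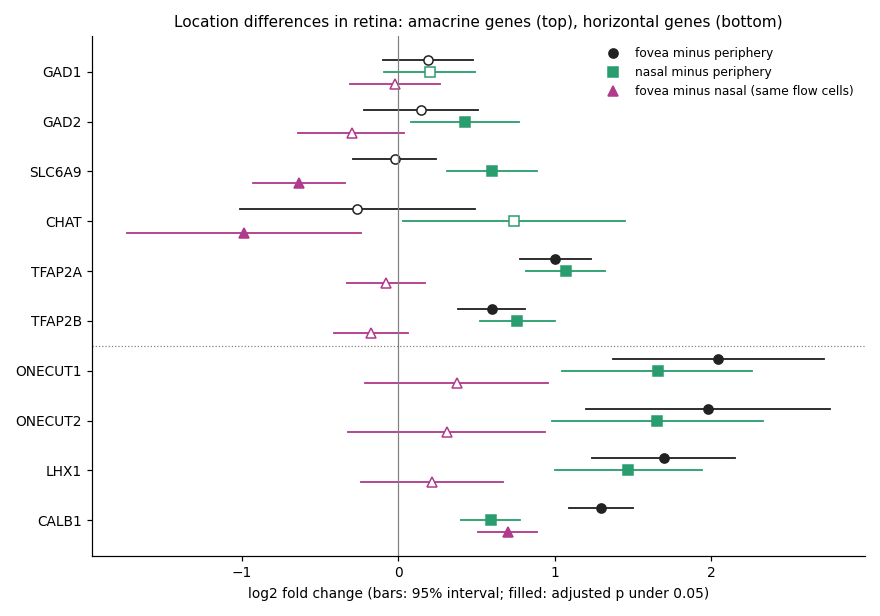
Log2 fold changes of the 10 genes in neural retina for 3 pairs of locations, with the amacrine cell genes above the dotted line and the horizontal cell genes below it. Bars are 95% intervals and filled symbols passed an adjusted p under 0.05. Against the periphery, all 4 horizontal cell genes are filled and positive from both the fovea and the nasal location. In the comparison of fovea with nasal retina, made within shared flow cells, CALB1 lies at 0.70 and SLC6A9 at -0.63.

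Perimacula and nasal retina were also compared with the periphery. Between perimacula and periphery 8 members passed, all higher in the perimacula, beside 50.3% of all genes, and between nasal retina and periphery 8 members passed, all higher in nasal retina, beside 48.7%. These comparisons share the periphery libraries. The log2 fold changes between nasal retina and periphery were 1.66 for ONECUT1, 1.66 for ONECUT2, 1.47 for LHX1, 0.59 for CALB1, 1.07 for TFAP2A and 0.76 for TFAP2B. SLC6A9 was higher than in the periphery by 0.53 in the perimacula (edgeR, adjusted p = 0.00341) and by 0.60 at the nasal location (edgeR, adjusted p = 0.00213). The former call held in 13 of 14 alternatives (adjusted p from 0.000186 to 0.0589) and was lost without the covariate. In the right eye of RM04 the nasal and peripheral SLC6A9 levels were alike, 191.7 and 191.8 CPM.

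The decarboxylases gave weaker calls here. GAD1 was higher in the perimacula than in the periphery by 0.35 (95% interval 0.06 to 0.64; edgeR, adjusted p = 0.0453), which held in 8 of 14 alternatives (adjusted p from 0.0177 to 0.207) and was lost without the right eye of RM03 (0.43), its left eye (0.29) or the left eye of RM04 (0.33). GAD2 was higher at the nasal location than in the periphery by 0.42 (95% interval 0.08 to 0.77; edgeR, adjusted p = 0.0398), which held in 5 of 13 alternatives (adjusted p from 0.0124 to 0.279) and was lost without the same eyes (0.25, 0.29 and 0.51). Nasal CHAT, at 0.74 above the periphery, did not pass (edgeR, adjusted p = 0.0802) but did without the right eye of RM04 (1.06). Nasal GAD1, at 0.20, also passed without that eye alone (0.40).

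Set side by side within each library, the mean log2 CPM of the 4 horizontal cell genes was highest in the fovea and that of the 6 amacrine cell genes at the nasal location. These means are a description with no test, since the genes were chosen with results of these data known. The horizontal mean was 3.85 ± 0.07 in the fovea, 3.34 ± 0.15 in the perimacula, 3.45 ± 0.10 at the nasal location and 2.10 ± 0.36 in the periphery (SD, n = 4 eyes). The amacrine mean was 5.13 ± 0.22, 5.31 ± 0.25, 5.49 ± 0.13 and 4.85 ± 0.44 in the same order. Its perimacula minus nasal change was -0.18 ± 0.31, with 1 of 4 eyes higher in the perimacula. Among the 6 genes the largest change was that of the barely detected CHAT (-0.93), against -0.24 to 0.16 for the others. A mean without CHAT was not taken.

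The amacrine mean minus the horizontal mean was 1.28 ± 0.26 in the fovea, 1.97 ± 0.40 in the perimacula, 2.04 ± 0.22 at the nasal location and 2.75 ± 0.28 in the periphery. From periphery to fovea it changed by -1.68, -1.60, -1.69 and -0.89 in the 4 eyes, and it was lower in the fovea in 4 of 4. Within the shared flow cells the sign was the same in every eye, with a mean of -0.68 ± 0.29 against the perimacula and -0.76 ± 0.25 against the nasal location. The right eye of RM04 contributed the largest of the perimacular values (-1.02) and the smallest of the nasal ones (-0.47).

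**Figure D3:**
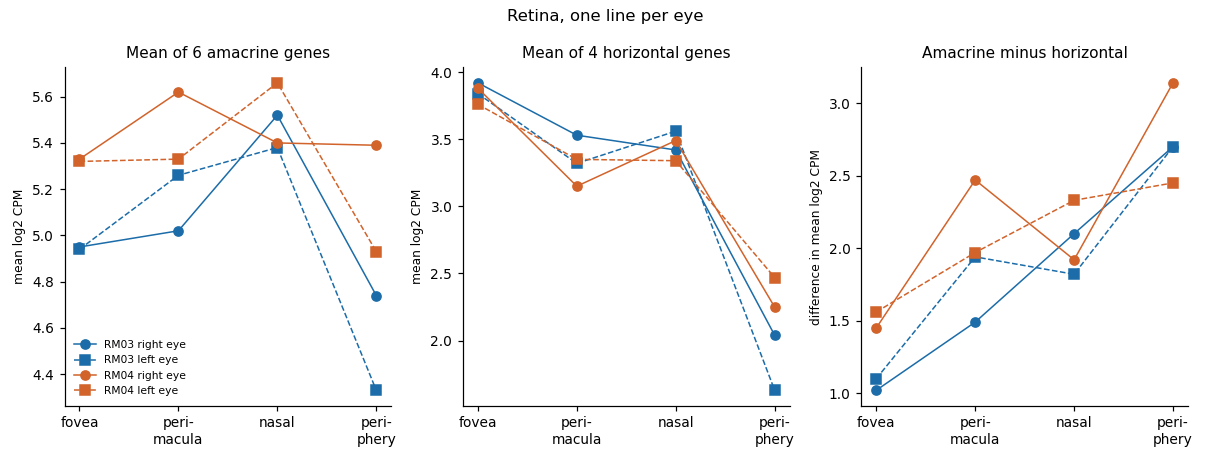
Mean log2 CPM of the 6 amacrine cell genes, of the 4 horizontal cell genes, and their difference in neural retina, with a line per eye (vertical axes do not start at 0). The horizontal mean is highest in the fovea and lowest in the periphery in all 4 eyes, and the difference between the means is lowest in the fovea in all 4 eyes.

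Markers of other retinal cells moved with location at the same time, beside the 67.0% of all genes that passed between fovea and periphery. All 10 ganglion cell markers were higher in the fovea than in the periphery (median log2 fold change 3.50), and their summed level went from 11800 ± 863 CPM in the fovea through 4860 ± 1500 and 2480 ± 165 CPM in the perimacula and nasal retina to 961 ± 329 CPM in the periphery. All 9 rod markers were lower in the fovea (median -2.20), with sums of 4560 ± 306 and 26100 ± 1440 CPM in fovea and periphery. Of 10 cone markers 8 were higher in the fovea, of 8 Müller glia markers 7 were lower, and of 9 bipolar cell markers 2 were higher and 3 lower. Between fovea and nasal retina the ganglion cell markers again all passed, with a median of 2.08, while among the horizontal cell genes CALB1 passed at 0.70 and the estimates of ONECUT1, ONECUT2 and LHX1, between 0.21 and 0.38, did not pass. The part of these cell types in the members' changes was not tested.

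Of the cells that can be carried over with the pigmented layer, 6 of 8 RPE markers were lower and 1 higher in the fovea of the retina than in its periphery, with sums of 335 and 1350 CPM, and 5 of 6 melanocyte markers were lower (TYRP1 is in both lists, and TRPM1 is also among the bipolar cell markers). Of 6 Schwann cell markers 1 was higher and 3 lower, and of 7 fibroblast and mural markers 1 was higher and 4 lower. Their part in the members' changes was not tested.

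Genes that work with the members did not move as one. The counts of this list and the lists below are to be read beside the 67.0% of all genes that passed between fovea and periphery. In GABA and glycine handling, 4 of the 7 genes tested differed between fovea and periphery, 2 in each direction. ALDH5A1, which clears a product of GABA breakdown, was higher in the fovea (log2 fold change 0.97, adjusted p = 5.87e-07). GLDC, of the glycine cleavage system, was lower (-1.97, adjusted p = 1.92e-07), as was the GABA transporter gene SLC6A11 (-1.05, adjusted p = 2.72e-05). The list's median was 0.14. SLC32A1, the vesicular transporter of GABA and glycine, had an estimate of 0.38 with a 95% interval from -0.02 to 0.77.

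A further list held SLC18A3, SLC5A7 and ACHE, of acetylcholine handling, together with FEZF1 and MEGF10. In it, 3 of 5 genes passed, with a median of 0.75. SLC5A7, which takes up choline in cholinergic neurons, was higher in the fovea (1.80, adjusted p = 0.000647), and so was ACHE, the enzyme that splits acetylcholine (1.61, adjusted p = 5.50e-07). MEGF10, a receptor that spaces starburst cells, was lower (-0.57, adjusted p = 0.000132). SLC5A7 was also at its highest in nasal retina (3.36 ± 0.84 CPM, against 2.31 ± 0.69 in the fovea and 0.64 ± 0.31 in the periphery; SD, n = 4), the location at which CHAT had its highest mean, although the difference of SLC5A7 between fovea and nasal retina did not pass (-0.57, adjusted p = 0.168). SLC18A3, the vesicular acetylcholine transporter, did not pass between fovea and periphery (0.75, 95% interval -0.24 to 1.74).

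Among other genes used by amacrine cells, 11 of 15 tested passed between fovea and periphery, 7 higher and 4 lower in the fovea, with a median of 0.57. The highest estimates belonged to the transcription factor genes BHLHE22 (1.47, adjusted p = 0.000266) and PAX6 (1.41, adjusted p = 5.22e-06) and to DAB1, an adaptor of reelin signalling (1.24, adjusted p = 1.50e-07). PAX6 is also used by ganglion and horizontal cells. At the other end stood LHX9, a LIM homeobox gene (-2.48, adjusted p = 8.07e-07), SLC18A2, the vesicular monoamine transporter (-1.34, adjusted p = 0.00208), and GJD2, which encodes the gap junction protein connexin 36 (-0.78, adjusted p = 2.35e-06). TFAP2C, another AP-2 factor, was higher in the fovea like the member AP-2 genes (0.70 ± 0.13, SE; adjusted p = 0.000596). It is named for its relation to them and not for its size.

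Of 9 neuropeptide genes of amacrine cells tested, 6 passed between fovea and periphery, 5 lower and 1 higher in the fovea, with a median of -1.16. Somatostatin (SST) was at 0.04 ± 0.04 CPM in the fovea, under the level of 3 counts, and at 4.18 ± 3.29 CPM in the periphery (adjusted p = 0.000686), and no fold is given for it. Lower as well were TAC3, the neurokinin B precursor, at 0.33 ± 0.07 and 3.56 ± 1.62 CPM (-3.40, adjusted p = 5.72e-07), and CARTPT, the CART peptide precursor, at 7.94 ± 4.06 and 35.4 ± 12.6 CPM (-2.21, adjusted p = 2.11e-05). All 3 were lower in the fovea than in nasal retina too, within shared flow cells, with log2 fold changes of -2.51 for TAC3 and -1.51 for CARTPT. VIP was the exception (2.32, adjusted p = 0.0173), with an SD of 10.9 CPM about a foveal mean of 11.5 CPM.

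Of 9 other horizontal cell genes tested, 8 passed between fovea and periphery, beside 67.0% of all genes. Of these, 5 were higher and 3 lower in the fovea, and the median of the list was 0.24. Higher were ADRA2A, an adrenergic receptor (2.21, adjusted p = 0.000218), SLC4A3, an anion exchanger (2.02, adjusted p = 1.49e-06), and TNR, the matrix protein tenascin-R (0.82, adjusted p = 0.00225). Lower were the septin gene SEPT4 (-0.73, adjusted p = 9.84e-06), MEGF11, a receptor in horizontal cell spacing (-0.56, adjusted p = 0.000113), and GJA10, a connexin of horizontal cells (-0.46, adjusted p = 0.0495). The list as a whole therefore lacked the single direction of the 4 member genes. Of its genes, ISL1 also stands among the bipolar cell markers.

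In RPE/choroid, only SLC6A9 and TFAP2A stood at levels comparable to those of retina. The other 8 members were at a small share of the retinal level or near the counting floor, which at 3 counts corresponds to 0.0399 to 0.0683 CPM per library. ONECUT1 had 12, 4, 9 and 28 estimated counts summed over the 4 eyes at fovea, perimacula, nasal location and periphery, ONECUT2 had 3, 9, 1 and 5, and LHX1 had 12, 8, 12 and 46. None of these 3 passed the filter on low counts in RPE/choroid, and CHAT passed it with 17, 29, 11 and 57 counts, 0 in 7 of its 16 libraries. No fold is given for these 4 genes.

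Between fovea and periphery of the RPE/choroid, 5 of the 7 members tested passed, beside 44.1% of all genes. SLC6A9 was at 137.8, 140.7, 173.7 and 199.3 CPM in the fovea and 70.7, 13.9, 31.6 and 60.3 CPM in the periphery. The groups were far apart, and the left eye of RM03 was lowest in the periphery. The log2 fold change was 1.87 ± 0.44 (SE; edgeR, adjusted p = 0.00557), 3.64-fold. The 8 RPE markers summed to 19700, 5620, 12100 and 21500 CPM in the same peripheral libraries, lowest in the same eye, but to a similar range in the fovea (9430 to 19400 CPM), and the 2 of 8 that passed the test were lower in the fovea. The part of RPE content in the SLC6A9 levels was not tested.

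TFAP2A, which melanocytes also use, was at 79.8, 103.0, 46.6 and 42.7 CPM in the fovea and 45.7, 69.8, 38.3 and 27.6 CPM in the periphery. The groups overlapped because the animals differed at both locations, and each eye was higher in the fovea, by 0.28 to 0.80 on the log2 scale (0.55 ± 0.16, SE; edgeR, adjusted p = 0.0178). The call held in 11 of 14 alternatives (adjusted p from 0.00355 to 0.186) and was lost without the right eye of RM03 (0.49) or the left eye of RM04 (0.55). Of 6 melanocyte markers 1 was higher and 2 lower in the fovea, beside the 44.1% of all genes that passed. The 6 summed to 6190 to 7880 CPM in the fovea and 9910 to 12000 CPM in the periphery. The part of melanocytes in the TFAP2A levels was not tested.

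The remaining calls went the other way and at low levels. TFAP2B rose from 0.72, 1.13, 0.82 and 1.502 CPM in the fovea to 6.87, 5.16, 5.09 and 3.78 CPM in the periphery, with a log2 fold change of -2.35 ± 0.33 for fovea minus periphery (SE; edgeR, adjusted p = 0.000243). GAD2 was at 0.28, 0.17, 0.60 and 0.59 CPM and at 3.57, 0.76, 1.92 and 2.71 CPM (-2.67 ± 0.56; edgeR, adjusted p = 0.00297). GAD1 was at 0.15, 0.11, 0.28 and 0.48 CPM and at 2.06, 1.38, 0.57 and 0.61 CPM (-2.23 ± 0.74; edgeR, adjusted p = 0.0302). In each case every peripheral eye was above every foveal one. Overlap in RPE/choroid was not counted over all genes, of which 44.1% passed the test between fovea and periphery. The GAD1 call held in 8 of 13 alternatives (adjusted p from 0.00539 to 0.14) and was lost without the right eye of RM03 (-1.78), its left eye (-1.64) or the right eye of RM04 (-2.66).

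Retinal markers moved in some of these libraries. The rod marker sum in RPE/choroid was 49.0 to 130.0 CPM in 3 foveal eyes and 527 CPM in the right eye of RM04, and 908, 121, 207 and 672 CPM in the 4 peripheral libraries, and the median log2 fold change of the 9 was -2.02. None of the 9 passed by edgeR, 1 had an unadjusted p under 0.05 and 3 passed by DESeq2. Of 9 bipolar cell markers 4 passed by edgeR, all lower in the fovea, a share near the 44.1% of all genes that passed. CALB1 followed the same libraries, with 2.13, 1.26, 7.64 and 2.28 CPM in the fovea and 9.65, 0.71, 1.44 and 3.55 CPM in the periphery, and did not pass (-0.29, 95% interval -2.15 to 1.57; edgeR, adjusted p = 0.803). The 4 peripheral eyes stood in the same order for GAD2, CALB1 and SLC6A9 as for the rod marker sum, and in other orders for TFAP2B, GAD1 and TFAP2A. SLC6A9, abundant in RPE/choroid, was lower in the periphery than in the fovea. Schwann cell markers, 4 of 6 of which were lower in the fovea, summed to 337 to 385 CPM there and to 4360, 12100, 626 and 1080 CPM in the periphery. The part of retinal or nerve material in the RPE/choroid levels was not tested.

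**Figure D4:**
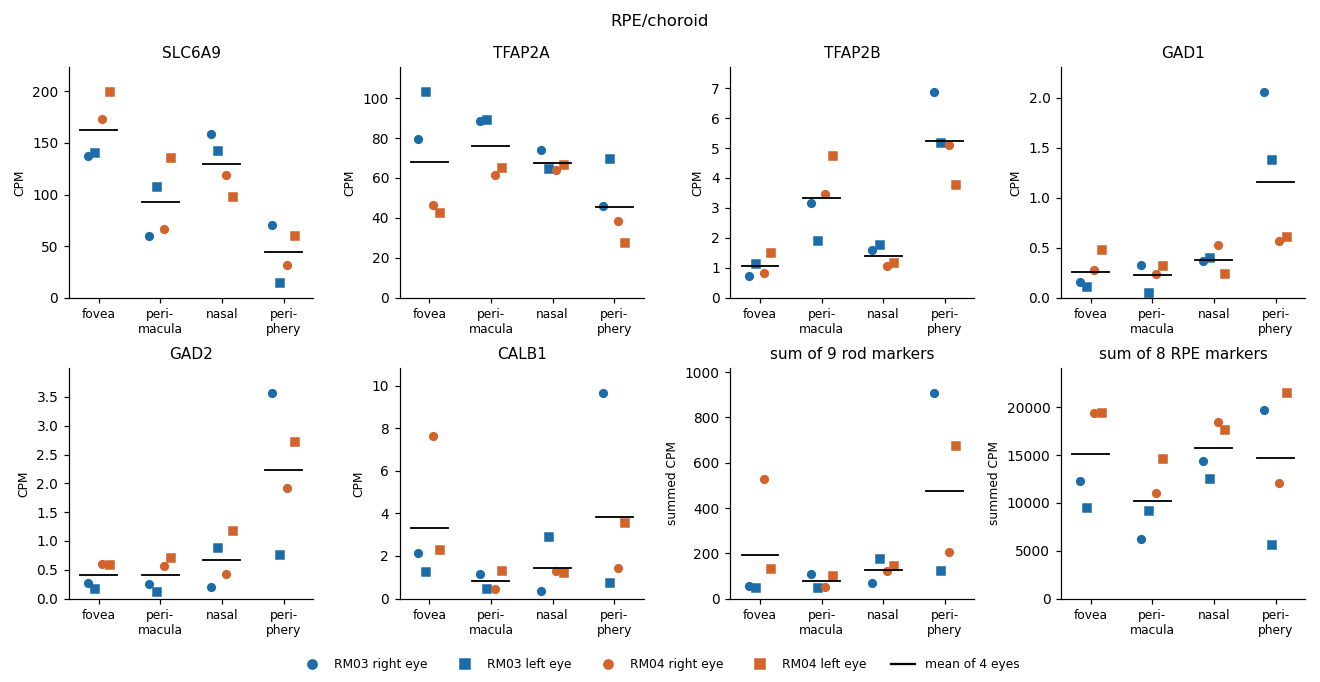
Levels of 6 members in RPE/choroid in CPM, with the summed levels of 9 rod markers and 8 RPE markers in the same libraries, on linear axes from 0. Points are single eyes, blue for RM03 and orange for RM04, and black lines are means of 4 eyes. SLC6A9 is higher in the fovea than in the periphery in every eye, TFAP2B, GAD1 and GAD2 are lower, and the CALB1 points are highest in the 2 libraries named for it, the foveal right eye of RM04 and the peripheral right eye of RM03.

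Within the shared flow cells of the RPE/choroid, the fovea was tested against the perimacula and the nasal location, and perimacula against nasal location was not tested. Between fovea and perimacula 0 of 7 passed by edgeR, beside 0.0447% of all genes. By DESeq2 1 passed, TFAP2B, and 2 had an unadjusted p under 0.05 in edgeR. The share of all genes is that at edgeR's adjusted p and is no measure for these 2 counts. TFAP2B was at 3.18, 1.89, 3.47 and 4.74 CPM in the perimacula, above every foveal eye, with a log2 fold change of -1.66 (95% interval -2.37 to -0.95; edgeR, adjusted p = 0.116). It passed in 4 of 16 alternatives (adjusted p from 0.000508 to 0.786). The other at an unadjusted p under 0.05 was CALB1 (1.94, 95% interval 0.08 to 3.81; edgeR, adjusted p = 0.442). Between fovea and nasal location 0 of 7 passed by edgeR, beside 0.361% of all genes, and 0 by DESeq2. At an unadjusted p under 0.05 in edgeR there were 0, beside 2449 of the 15789 genes tested. SLC6A9 had an estimate of 0.32 there, with a 95% interval from -0.53 to 1.17. TFAP2B, at 1.59, 1.75, 1.06 and 1.17 CPM at the nasal location, was below the perimacula in 4 of 4 eyes without overlap, by a mean of 1.19 ± 0.83 on the log2 scale (SD, n = 4).

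The tissues were compared directly after scaling all 32 libraries together. GAD1, GAD2, TFAP2B and the 4 horizontal cell genes were higher in retina at every location, and SLC6A9 and TFAP2A were not. CHAT, barely detected, passed at the nasal location alone. At the fovea 7 of 10 passed, all higher in retina, beside 75.5% of all genes. Of the 8 that passed at the perimacula (background 76.7%) and the 8 at the nasal location (76.2%), all were again higher in retina, and of 9 at the periphery (75.7%), 8 were. RPE/choroid held 0.22% to 1.38% of the retinal GAD1 level, 0.507% to 2.99% of GAD2, 1.22% to 8.80% of TFAP2B and 0.234% to 1.73% of CALB1, highest at the periphery for each. The rod marker sum stood at 4.53%, 0.555%, 0.799% and 1.92% of the retinal level at fovea, perimacula, nasal location and periphery. Leaving out an eye, an alternative added after the data were seen, moved the foveal rod share to 1.86% without the right eye of RM04. It moved the CALB1 share from 0.642% to 0.357% at the fovea without the same eye, from 0.443% to 0.286% at the nasal location without the left eye of RM03, and from 1.73% to 0.904% at the periphery without the right eye of RM03.

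The standing of SLC6A9 between the tissues varied with location. Its RPE/choroid level was 137% of the retinal level at the fovea, 51.5% and 69.3% at the perimacula and the nasal location, and 34.5% at the periphery. The retina was higher at the perimacula (log2 fold change 0.96; edgeR, adjusted p = 0.007) and the periphery (1.52; edgeR, adjusted p = 0.000103), and the fovea (-0.45, 95% interval -1.09 to 0.18) and the nasal location (0.51, 95% interval -0.13 to 1.14) did not pass. The foveal value passed in 1 of 15 alternatives (adjusted p from 0.00103 to 0.426), with the compared groups alone, and the nasal value in 4 of 15 (0.00612 to 0.417). The perimacular call held in 14 of 15 alternatives (adjusted p from 0.00019 to 0.0844) and was lost without the right eye of RM04 (0.75). TFAP2A stood at 118% to 164% of the retinal level. It was lower in retina than in RPE/choroid at the periphery (-0.69; edgeR, adjusted p = 0.0182), which held in 9 of 13 alternatives (adjusted p from 0.00944 to 0.326) and was lost without either eye of RM03 (right -0.62, left -0.26).

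Calls of 2 low genes in these tissue comparisons rested on few counts. CHAT passed at the nasal location alone, with 40, 43, 26 and 45 counts in retina and 0, 11, 0 and 0 in RPE/choroid, in 10 of 14 alternatives (adjusted p from 0.000407 to 0.104), and not without the right eye of RM03 or either eye of RM04, nor with fellow eyes summed. LHX1 at the periphery, with 54, 45, 78 and 108 counts in retina and 11, 34, 1 and 0 in RPE/choroid, passed in 9 of 12 alternatives (adjusted p from 0.000353 to 0.0685) and not without the left eye of RM04, with the compared groups alone or with fellow eyes summed.

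The change from periphery to fovea differed between the tissues for 5 members (interaction of tissue and location), beside 43.5% of all genes. It was more positive in retina for TFAP2B by 2.88 on the log2 scale (edgeR, adjusted p = 5.50e-08), for GAD2 by 2.61 (adjusted p = 0.000317) and for GAD1 by 2.36 (adjusted p = 0.000779). SLC6A9 was more positive in RPE/choroid, with a difference of -1.97 for retina minus RPE/choroid (adjusted p = 0.000668). ONECUT1 passed as well (adjusted p = 0.0179), but its RPE/choroid libraries held 4, 0, 7 and 1 counts in the fovea and 15, 0, 0 and 13 in the periphery, so that no size is given. That call held in 9 of 12 alternatives (adjusted p from 0.00217 to 0.162) and was lost without the right eye of RM03 or the left eye of RM04. TFAP2A did not pass, with a 95% interval from -0.39 to 1.09. CALB1 did not either (1.40, 95% interval -0.18 to 2.97), except without the right eye of RM04 (2.53).

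The genes most like each member were sought by Pearson's r of log2 CPM over the 16 retinal libraries, among 8992 genes. The libraries share animals, eyes, locations and flow cells, so that r is a description. The AP-2 factors were near neighbours of each other: TFAP2B was among the 3 nearest to TFAP2A (r = 0.96), and TFAP2A among the 3 nearest to TFAP2B. MAMLD1 ranked first for TFAP2A (r = 0.977) and SIPA1L3 for TFAP2B (r = 0.971). First for the horizontal cell genes were RNF44 for ONECUT1 (r = 0.944), CHRNA2 for ONECUT2 (r = 0.929), GLIS2 for LHX1 (r = 0.963) and CDS2 for CALB1 (r = 0.988). For the transmitter genes they were KIRREL3 for GAD1 (r = 0.918), SFXN5 for GAD2 (r = 0.875), RPH3A for SLC6A9 (r = 0.926) and ELAC2 for CHAT (r = 0.82). PTPRF was among the 3 nearest of both GAD2 (r = 0.874) and SLC6A9 (r = 0.911).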

How the data were processed

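The authors deposited, per sequencing lane, estimated counts per gene, under a column headed TPM. Per the study's methods, reads were assigned with Salmon to Mmul_8.0.1, with GRCh38 for genes not quantified there, and imported with tximport, and the submitters' notes name Salmon 0.13 and edgeR. The column was read as estimated counts because lane sums differed (7932259 to 39439054). Its exact scaling is not given in the sources used here. Here the 136 lanes were summed into 32 libraries and rounded, and 10 entries repeating an identifier were left out.

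Differential expression was tested with edgeR 4.0.16 (R 4.3.3, limma 3.58.1): quasi-likelihood, TMM, filterByExpr at a minimum count of 10, monkey as a covariate, Benjamini-Hochberg adjustment over all genes tested, adjusted p under 0.05. Fovea, perimacula and periphery of a tissue were fitted together, comparisons with the nasal location with all 16 libraries of the tissue, and tissue comparisons with all 32. Intervals are at 95%. Log2 CPM used a prior count of 2. The fits were tested on simulated data. Alternatives were DESeq2 1.42.0, other scalings and filters, no covariate, a block for the eye, the compared groups alone, fellow eyes summed, lanes of 1 flow cell and leaving out each eye in turn. Python 3.11.15, numpy 2.4.6, pandas 2.3.3 and matplotlib 3.10.9 made the tables and plots.

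Same-numbered samples are the same eye by the labels. Deviations from the mean of each location were correlated over the most variable genes of each tissue. Libraries of an eye deviated together (mean r 0.511 in retina, 0.365 in RPE/choroid), libraries of fellow eyes as much (0.507 and 0.391), and libraries of different animals oppositely. Taking out the location means pulls r between the 2 animals below 0, so that its sign is not a result. Libraries of a group differed by at least 4.32 times counting noise, so that none was counted as a duplicate.

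The members and gene lists were chosen with earlier results of these data known. Named genes are the 10 members, up to 3 called genes per direction of each list by fold change between fovea and periphery, and the 3 genes nearest to each member among those averaging 3 log2 CPM or more, and SLC32A1, SLC18A3, TFAP2C and ISL1 were named after their values were seen. List symbols without exactly 1 entry (SLC6A13, GCSH, PTF1A, CALB2, ONECUT3, LHX5, VSX1, GLUL, KIT and LUM) were not analysed here, and SEPTIN4 was read as SEPT4. A result that the naming rule selects is not reported here.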

Additional observations from a re-analysis of the deposited data

Results flagged for a closer look

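The highest or lowest of 4 eyes stood apart from the others by Dixon's 95% criterion in 7 of the 80 groups examined. Chance alone gives about 1 in 20 for continuous values, a rate that does not hold for groups of few counts. With 3 libraries at 0, the remaining library is flagged whatever its count. That was so in RPE/choroid for CHAT, ONECUT2 and LHX1 at the nasal location and ONECUT2 at the periphery. In retina this was the nasal right eye of RM04, lowest for CHAT at 0.456 CPM. The other 6 were the highest RPE/choroid library of their group: CHAT at the nasal location (0.217 CPM, 11 counts), ONECUT1 at the perimacula (0.0187 CPM, 1 count, as in each of the 4 libraries there, so that the values differ by scaled library total alone), ONECUT2 at the nasal location (0.0197 CPM, 1 count) and the periphery (0.0665 CPM, 5 counts), LHX1 at the nasal location (0.236 CPM, 12 counts) and CALB1 at the fovea (7.64 CPM). The CALB1 value belongs to the right eye of RM04, whose rod marker sum was 527 CPM, against 49.0 to 130.0 CPM in the other foveal eyes. The left eye of RM03 gave the nasal values of CHAT, ONECUT2 and LHX1.

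The change between fovea and periphery differed between the tissues, by the interaction test, for GAD1 (2.36), GAD2 (2.61), ONECUT1 (2.68), TFAP2B (2.88) and SLC6A9 (-1.97), on the log2 scale as retina minus RPE/choroid. The ONECUT1 value is a fitted one from 12 and 28 counts over the 4 foveal and 4 peripheral RPE/choroid libraries, 3 of them at 0. It depends on the prior count and is no measure of size. SLC6A9 is the one member of these that was higher in the fovea in RPE/choroid.

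GAD2 in retina changed in opposite directions in the animals, upward from periphery to fovea in both eyes of RM03 and downward in both eyes of RM04. The mean changes were 0.88 apart on the log2 scale, and this difference was not tested.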

How the results depend on the processing

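Over 1838 values of single members under alternatives, 1771 stayed on the same side of the threshold (those not called could change sign), 45 lost and 22 gained significance, and 0 changed sign while called. The paired fit with the eye as a replicate block left 6 members called between fovea and periphery in retina and 5 in RPE/choroid, and changed no other call. Members called became 1 without the covariate and 4 on the lanes of 1 flow cell (fovea and perimacula of retina), 5 with the compared groups alone (fovea and nasal retina), 1 on the lanes of 1 flow cell (perimacula and nasal retina), and 1 by DESeq2, with the compared groups alone or on either flow cell (fovea and perimacula of RPE/choroid). A minimum of 10 counts in every library, which leaves fewer members tested, gave 3 between fovea and periphery of RPE/choroid, 2, 3, 2 and 4 between the tissues at fovea, perimacula, nasal location and periphery, and 2 for the tissue difference. Leaving out an eye gave 3 to 4 between fovea and periphery of RPE/choroid, with 3 without the right eye of RM03. Scaling by library totals in place of TMM moved the median of all genes from -0.06 to -0.19 between fovea and periphery of RPE/choroid, and from -0.00 to 0.14 and 0.01 to 0.18 between the tissues at fovea and nasal location. Shares of the retinal level without each eye, added after the data were seen, are given with the tissue comparison. Other causes were not tested. Low counts limit CHAT, ONECUT2 and LHX1.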
